A study of Mus musculus with 3 samples.

Results

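The genes of the RNA polymerase II machinery and of the Mediator complex were followed in MigA9 cells exposed to DB818. MigA9 is a mouse hematopoietic line that Hoxa9, a homeobox transcription factor, transformed, and DB818 is a small molecule of the minor-groove-binding kind that has been studied for blocking HOXA9 at its DNA sites. The treated groups were MigA9 cells given 2.5 µM DB818 for 6 h, 12 h or 24 h, labelled with Cy5, and the comparison group was the same line without exposure, labelled with Cy3. All cells carried the Hoxa9 transformation and grew in medium with GM-CSF-conditioned supernatant. Each time had 1 two-colour Agilent mouse array, so 3 arrays were compared in all. Members were taken by gene name: probes called Polr2, Taf, Gtf2, Med or Supt followed by a subunit number or letter, Ccnt1, Ccnt2, Cdk7 or Cdk9, and well above background in both channels. These names covered 125 probes for 71 genes. Of the probes, 97, 101 and 98 were well above background at 6, 12 and 24 h, and 95 were so on all 3 arrays. They measured 65 member genes, out of 11001 genes measured on all 3 arrays.

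RNA polymerase II transcribes all protein-coding genes. At a promoter it assembles with the general factors TFIIA, TFIIB, TFIID, TFIIE, TFIIF and TFIIH, and Mediator bridges it to factors bound at enhancers. After initiation the polymerase pauses under DSIF and NELF, and the kinase P-TEFb (Cdk9 with a cyclin T) releases it into elongation.

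Values are log2 ratios, treated over untreated, unless another scale is named, so 0 means equal signal. The dyes were never swapped, so in the mean over the times a steady dye bias of a probe cannot be told apart from the treatment. The labels do not say whether the 3 arrays shared 1 untreated preparation. The p-values and standard errors come from limma, which combines a gene's spread among these 3 arrays with a variance prior drawn from all genes. The arrays are 3 different times that stand in for replicates, so the spread between repeats of a time was not measured. Within an array, repeated spots of 1 probe differed by 0.04, 0.03 and 0.05 (SD of the log2 ratio) at 6, 12 and 24 h. The median Cy3 signal was 78.2, 79.2 and 79.3 against backgrounds of 41, 42 and 42, and no member probe was saturated. Of the fixed myeloid markers, 6 of the 6 found on the arrays were well above background, against 0 of 4 B cell, 0 of 4 T cell, 0 of 5 erythroid, 0 of 4 fibroblast and 0 of 2 megakaryocyte markers. The 6 included Hoxa9, the gene that transformed the line, whose signal therefore says nothing about cell type.

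The first comparison asked which members differed from untreated cells over the whole exposure. Changes were small, and both directions occurred. Averaged over the 3 times, 12 of the 65 members rose, 4 fell and 49 did not pass the test (limma, Benjamini-Hochberg adjusted p under 0.05 over all 11001 genes). Those that rose were led by the polymerase subunits Polr2h and Polr2j, the DSIF subunit Supt4h1 and the TFIID subunit Taf12. Those that fell were Taf6l, Ccnt1, Gtf2e2 and Med19. Among all genes, 20.6% were called higher and 8.09% lower, 28.7% in either direction, against 24.6% of the members, so the members' share was close to the background. Under the normalisation that centres each array on its median in place of loess, the members' split was 38 higher and 19 lower, where 40.1% of all genes were called higher and 41.0% lower. With the scanner's own processed signals it was 2 higher and 3 lower, where 6.43% of all genes were called higher and 6.88% lower. Of the 16 called members, 5 kept the call with processed signals and 2, Polr2h and Polr2j, kept it without the 12 h array.

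The sizes were small at every time. At 6, 12 and 24 h, 0 of 65 members reached a log2 ratio of 0.32 in either direction, where 2.63, 2.17 and 4.30% of all genes did. The highest single ratio was 1.24-fold (Polr2a at 24 h) and the lowest was a 1.22-fold reduction (Taf15 at 12 h). The latter came from 1 Taf15 probe, and another Taf15 probe was at 0.01 on the same array. The median over the members was 0.04, 0.03 and 0.02 at 6, 12 and 24 h, against 0.03, 0.03 and 0.03 over all genes. Members above 0 numbered 46, 41 and 34 of 65 at the 3 times, beside 6674, 6624 and 6666 of all 11001 genes. The ratio had 1 sign on all arrays for 37 members (56.9%) and for 62.3% of all genes. For each of the 49 members without a call, the 95% interval of the mean lay within 0.32 of 0, and the bounds reached -0.24 and 0.25. The added offset of 50 on both channels draws ratios of dim probes toward 0. The members were bright as a set, with a median intensity at percentile 68.1 of all measured genes.

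**Figure D1:**
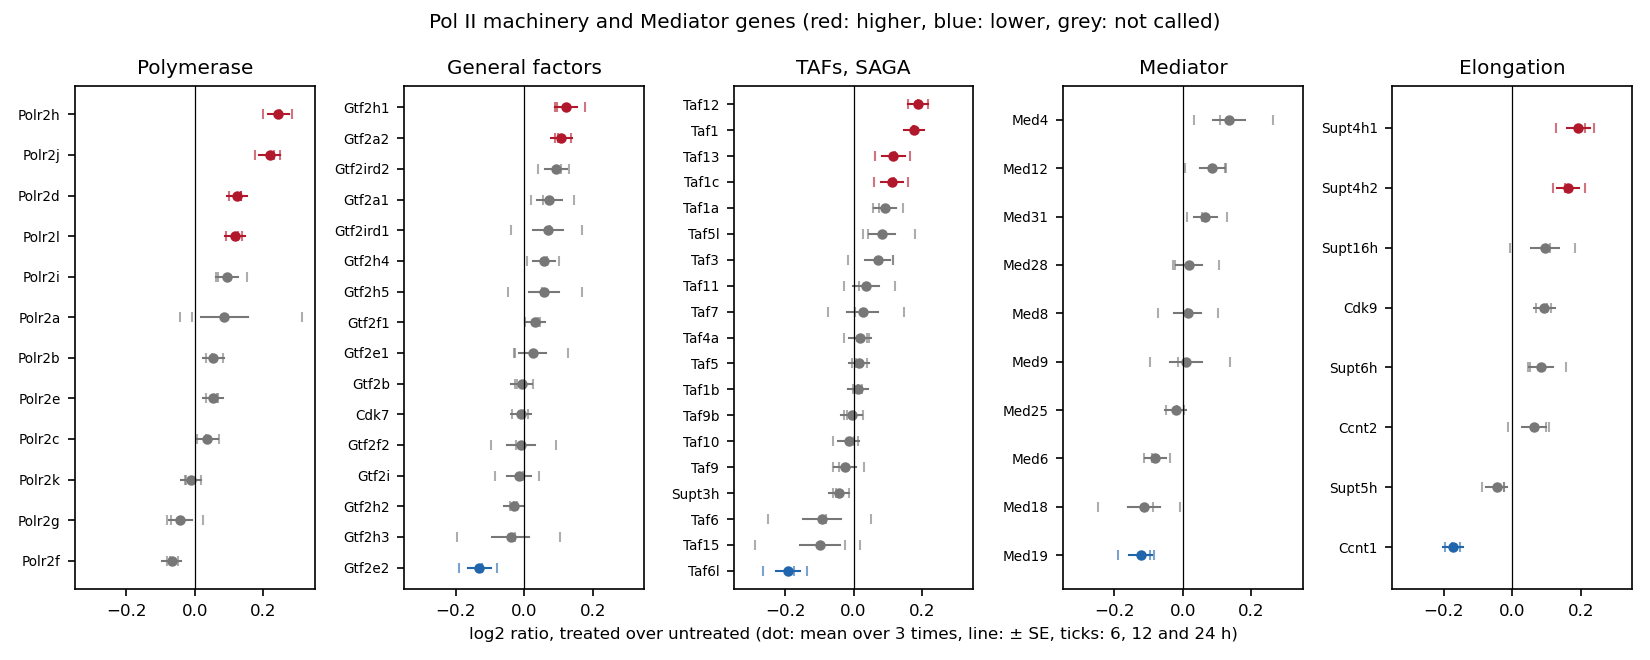
Mean log2 ratio of each member over 6, 12 and 24 h (dot) with its standard error from limma (line) and the ratio on each of the 3 arrays (ticks), in 5 panels by role. Red members were called higher, blue lower and grey not called, and the 4 blue members lie in the panels of general factors, TAFs and SAGA, Mediator and elongation.

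The core polymerase had 12 measured subunits, of which 4 rose, 0 fell and 8 did not pass the test. For this and each later count by complex or list, the share over all genes was 20.6% higher and 8.09% lower. No complex was tested as a set. Polr2h encodes RPB8, a small subunit present in all 3 nuclear RNA polymerases. Its ratio was 0.28 at 6 h, 0.20 at 12 h and 0.25 at 24 h. The treated channel was the higher one on every array, and the mean was 0.24 ± 0.03 (SE from limma, 3 arrays), or 1.18-fold, with an adjusted p of 0.0049 (limma). Polr2j encodes RPB11, which pairs with RPB3 in the assembly of the enzyme. It stood at 0.23, 0.18 and 0.25 at 6, 12 and 24 h, also above 0 throughout, with a mean of 0.22 ± 0.03 and an adjusted p of 0.0060 (limma). Polr2h and Polr2j kept their calls under all alternatives in which they were tested.

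The other subunits that rose were Polr2d and Polr2l. Polr2d encodes RPB4, part of the stalk, and its ratios were 0.14, 0.13 and 0.10 with a mean of 0.12 ± 0.03 (limma adjusted p = 0.024). Polr2l encodes RPB10, another subunit shared by the 3 enzymes, and its ratios were 0.14, 0.09 and 0.13 with a mean of 0.12 ± 0.03 (limma adjusted p = 0.028). Both were above 0 on each array, and their calls were lost under 5 (Polr2d) and 7 (Polr2l) of 13 alternatives. Among the 5 shared subunits Polr2e, Polr2f, Polr2h, Polr2k and Polr2l, 2 rose and 0 fell. Polr2e was at 0.06, 0.03 and 0.07, Polr2f at -0.07, -0.08 and -0.05, and Polr2k at 0.02, -0.03 and -0.03, and none of these 3 was called.

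Polr2a encodes RPB1, the largest catalytic subunit, whose C-terminal domain is phosphorylated by Cdk7 and Cdk9. Its ratio was -0.01 at 6 h, -0.04 at 12 h and 0.31 at 24 h, so the 24 h array stood apart from the other two. The mean was 0.09 ± 0.07 and was not called (limma adjusted p = 0.36). Its 1 probe was dim, at intensity percentile 6.64. The log2 signal of the untreated channel was 6.48, 6.59 and 5.98 at the 3 times and that of the treated channel 6.47, 6.54 and 6.29. Both channels were lowest at 24 h, and the untreated one had dropped further. Polr2b, which encodes the other large catalytic subunit, was at 0.08, 0.03 and 0.05. Polr2c (RPB3) was at 0.03, 0.01 and 0.07, Polr2i (RPB9) at 0.15, 0.06 and 0.07, and Polr2g (RPB7) at 0.02, -0.08 and -0.07. None of these 4 was called. Under median centring the mean turned sign for Polr2a (-0.56), Polr2f (0.26), Polr2g (0.37) and Polr2k (0.29). That of Polr2a was also below 0 with processed signals (-0.04) and without the 24 h array (-0.03).

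The sequences just upstream of 6 members are shown. These genes carry the largest called mean differences in each direction, the sole call over time and the highest ratio at 24 h (Polr2a). Each run is the 150 bases before the RefSeq start of the gene in GRCm38.p6, 5′ to 3′ on the gene's strand, taken for Polr2h from the first of 2 starts. Capitals mark matches, on either strand, to a TATA box (TATAAA), the CCAAT box, a GC-rich element called the GC box (GGGCGG) or an ETS core (CGGAAG). In Ccnt1 a GC box and an ETS core overlap and appear as 1 run of capitals.
Polr2h, chr16:20717676-20717825, plus strand: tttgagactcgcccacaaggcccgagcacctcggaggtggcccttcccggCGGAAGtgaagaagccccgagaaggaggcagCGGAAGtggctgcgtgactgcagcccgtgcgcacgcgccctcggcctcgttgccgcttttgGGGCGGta
Polr2j, chr5:136116541-136116690, plus strand: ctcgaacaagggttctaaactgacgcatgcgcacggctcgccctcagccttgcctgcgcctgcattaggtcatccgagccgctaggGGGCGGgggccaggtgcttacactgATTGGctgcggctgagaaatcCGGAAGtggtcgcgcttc
Taf6l, chr19:8786317-8786466, minus strand: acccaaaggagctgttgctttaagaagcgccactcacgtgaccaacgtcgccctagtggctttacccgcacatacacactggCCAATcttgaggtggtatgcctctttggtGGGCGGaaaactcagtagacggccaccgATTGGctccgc
Ccnt1, chr15:98567737-98567886, minus strand: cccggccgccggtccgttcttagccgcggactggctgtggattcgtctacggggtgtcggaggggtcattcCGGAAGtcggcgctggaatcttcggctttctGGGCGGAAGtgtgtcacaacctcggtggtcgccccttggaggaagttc
Gtf2h3, chr5:124578998-124579147, plus strand: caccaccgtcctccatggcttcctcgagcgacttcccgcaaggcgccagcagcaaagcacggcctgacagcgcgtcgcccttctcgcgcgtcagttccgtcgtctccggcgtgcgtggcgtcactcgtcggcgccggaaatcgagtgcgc
Polr2a, chr11:69758634-69758783, minus strand: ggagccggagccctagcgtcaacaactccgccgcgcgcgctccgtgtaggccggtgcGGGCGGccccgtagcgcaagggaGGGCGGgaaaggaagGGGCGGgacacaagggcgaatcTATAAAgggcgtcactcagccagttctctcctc
Polr2h held 2 ETS cores and 1 GC box, and Polr2j held 1 CCAAT box, 1 GC box and 1 ETS core. Taf6l held 2 CCAAT boxes and 1 GC box, and Ccnt1 held 1 GC box and 2 ETS cores. Polr2a was the one of these 6 with a TATA box, 33 bases upstream of the start, and it held 3 GC boxes. Gtf2h3 held none of the 4 motifs in this window.

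RefSeq starts were found for 57 of the 65 members, with 67 windows of 250 bases upstream in all. The ETS core occurred in 44.8% of the members' windows, in 26.1% of the 7318 windows of measured genes and in 13.6% of all 32851 windows. The GC box occurred in 61.2% of the members' windows, against 58.6% for measured genes and 32.7% for all. The TATA box occurred in 13.4%, 6.07% and 12.4% of the same 3 sets, and the CCAAT box in 32.8%, 35.6% and 33.8%. A composite Hox-Pbx site spelled TGATTTAT was in 1 of the 67 windows (1.49%, against 0.232% for measured genes and 0.837% for all), and the form TGATTTAC was in 0 of 67, against 0.383% and 0.496%. The median GC content was 61.6% in the members' windows, 60.0% in those of measured genes and 52.4% in all windows. These matches are letters only and no binding was measured.

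The general initiation factors other than TFIID were represented by 13 genes, of which 2 rose, 1 fell and 10 did not pass the test of the mean. Gtf2a2, the small subunit of TFIIA, which stabilises TBP on DNA, was at 0.10, 0.09 and 0.14 with a mean of 0.11 ± 0.03 (limma adjusted p = 0.036). Its 3 probes shared the sign, but the call was lost under 6 of 13 alternatives, and with processed signals the mean was 0.05 (limma adjusted p = 0.41). Gtf2a1, which encodes the other TFIIA chains, was at 0.15, 0.06 and 0.02 and was not called. Gtf2b, the single gene of TFIIB, which positions the polymerase at the start site, had a mean of -0.01 with a 95% interval from -0.08 to 0.06.

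Gtf2e2 encodes the small subunit of TFIIE, which recruits TFIIH. Its ratio was -0.19, -0.12 and -0.08 at 6, 12 and 24 h, below 0 on each array, and its mean fell by 0.13 ± 0.03 on the log2 scale (limma adjusted p = 0.029). Under median centring the mean of Gtf2e2 turned to 0.27, and under 5 of the other alternatives its call was lost. Gtf2e1, the large subunit, was at 0.13, -0.03 and -0.03 and was not called. Of TFIIF, which escorts the polymerase to the promoter, Gtf2f1 was at 0.04, 0.05 and 0.00 and Gtf2f2 at 0.09, -0.02 and -0.10. Neither was called, and the 2 probes of Gtf2f2 opposed each other, with means of -0.18 and 0.16.

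TFIIH opens the DNA, repairs damaged strands and carries the kinase Cdk7. Of its 6 members, 1 rose and 0 fell in the mean over the times. Gtf2h1, the p62 subunit, was at 0.18, 0.10 and 0.09 with a mean of 0.12 ± 0.03 (limma adjusted p = 0.034). This call was lost under 7 of 13 alternatives. Cdk7 stood at 0.00, 0.01 and -0.04, and the 95% interval of its mean ran from -0.08 to 0.06. Gtf2h4 and Gtf2h5 each had a mean of 0.06, and Gtf2h2 had one of -0.03, none of them called. Of 4 partners outside the naming rule, Ccnh, the cyclin of Cdk7, rose with a mean of 0.12 ± 0.03 (limma adjusted p = 0.039). Mnat1, Ercc3 and Ercc2 were not called, with means of 0.05, 0.04 and -0.02. The TFII-I family is a group of promoter factors that share the Gtf2 prefix but are not part of the initiation complex. Its 3 genes were not called, with means of -0.02 for Gtf2i, 0.07 for Gtf2ird1 and 0.09 for Gtf2ird2.

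TFIID recognises the core promoter through TBP and its TAF subunits. Of 13 measured TAFs of this group, 3 rose, 0 fell and 10 did not pass the test. Taf12 was at 0.22, 0.16 and 0.19, above 0 on all arrays, with a mean of 0.19 ± 0.03 (limma adjusted p = 0.0076). The call of Taf12 was lost under 2 of 13 alternatives. Taf12 pairs with Taf4 through a histone-like fold and is also a SAGA subunit. Taf1, the largest scaffold of TFIID, was at 0.17, 0.18 and 0.18 with a mean of 0.18 ± 0.03 (limma adjusted p = 0.0079), and its mean turned to -0.19 under median centring. The value of Taf1 is an average over 4 probes with means from -0.12 to 0.40, so the call does not describe all its probes. Taf13 was at 0.12, 0.06 and 0.17 with a mean of 0.12 ± 0.03 (limma adjusted p = 0.039). The call of Taf13 was lost under 8 of 13 alternatives.

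Some TAFs without a call varied widely between arrays. Taf15, an RNA-binding protein found with part of the TFIID pool, was at 0.02 at 6 h, -0.29 at 12 h and -0.03 at 24 h, so 1 array carried its low value. These ratios come from 1 probe. Another Taf15 probe, well above background in both channels at 12 h only, was at 0.01 there. Taf6, a histone-fold subunit, was at -0.08, 0.05 and -0.25, and here the 24 h array was the low one. Taf7, which binds Taf1, was at 0.15, 0.00 and -0.07, and Taf3, a reader of the promoter mark H3K4me3, at -0.02, 0.11 and 0.11. Taf9, Taf9b, Taf10, Taf5 and Taf4a had means between -0.02 and 0.02, and Taf11 had one of 0.04. TBP itself, from the list of TBP and its relatives, stood at -0.08, -0.06 and -0.09 and was not called, nor were Btaf1, Tbpl1, Dr1 and Drap1.

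Taf2, the TFIID subunit that contacts the initiator element, was measured at 12 and 24 h only. Its 2 probes were at 0.22 and 0.15 at 12 h and at 0.16 and 0.13 at 24 h. At 6 h the untreated channel was not well above background, and the treated signal was 1.38-fold and 1.31-fold the untreated signal of the same probe. These 2 ratios are uncertain for that reason. A further 5 named genes, Gtf2a1lf, Taf4b, Taf7l, Supt7l and Med12l, were not well above background with any probe on any array. These include forms of TAFs known from germ cells.

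Some TAF and Supt names belong to other complexes. Taf6l and Taf5l are the TAF-like subunits of SAGA, a coactivator that acetylates histones, and Supt3h is another of its subunits. Taf6l stood at -0.14, -0.17 and -0.26 at 6, 12 and 24 h, below 0 on every array, and its mean fell by 0.19 ± 0.04 on the log2 scale, a 1.14-fold reduction (limma adjusted p = 0.011). The call of Taf6l was lost under 2 of 12 alternatives. Taf5l was at 0.03, 0.18 and 0.04 and Supt3h at -0.06, -0.01 and -0.05, and neither was called. Taf6l and its TFIID paralog Taf6 both had means below 0, at -0.19 and -0.09, of which only the first was called, and Taf5l and Taf5 had means of 0.08 and 0.01. The differences within these pairs were not tested. Taf1a, Taf1b and Taf1c belong to the SL1 factor of RNA polymerase I. Of these 3, Taf1c rose, at 0.16, 0.06 and 0.12 with a mean of 0.11 ± 0.03 (limma adjusted p = 0.043), while Taf1a and Taf1b had means of 0.09 and 0.01 without a call. The call of Taf1c was lost under 8 of 13 alternatives, and with processed signals its mean was 0.07 (limma adjusted p = 0.38).

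**Figure D2:**
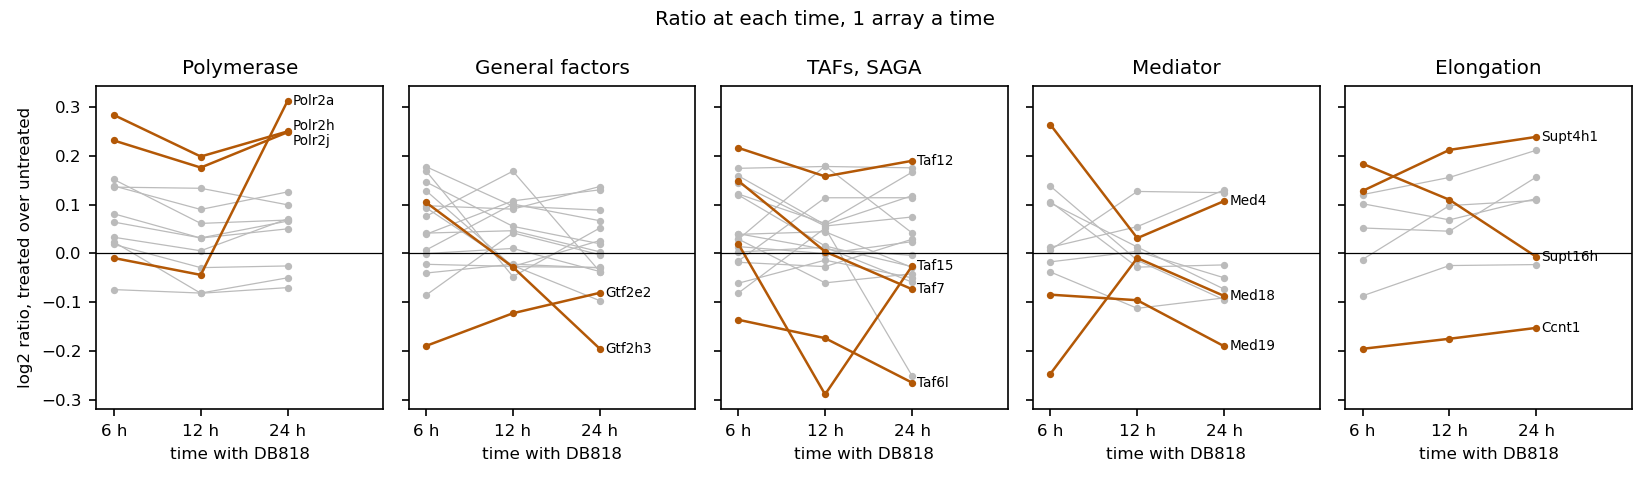
Log2 ratio of treated to untreated cells at 6, 12 and 24 h for each of the 65 members, in 5 panels by role, with 1 array a time and no error bars. Selected members are coloured and named: Polr2h, Polr2j and Supt4h1 stay above 0, Ccnt1, Taf6l and Med19 stay below 0, and Gtf2h3 runs from 0.10 to -0.20.

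Mediator was represented under its current names by 10 genes, of which 0 rose, 1 fell and 9 did not pass the test. Med19, which links Mediator to the polymerase and to several transcription factors, was at -0.08, -0.10 and -0.19, below 0 on each array. Its mean fell by 0.12 ± 0.03 on the log2 scale (limma adjusted p = 0.036). These values come from 1 of its 2 probes. The other probe, not well above background in the untreated channel at 24 h, was at 0.05 at 6 h and -0.07 at 12 h. With no filter on dim probes the Med19 mean was -0.05 and was not called (limma adjusted p = 0.22), and the call was lost under 5 of 12 alternatives. The head subunits Med6 (-0.04, -0.11 and -0.09) and Med18 (-0.25, -0.01 and -0.09) were below 0 at each time without a call, and Med8 was at 0.10, 0.01 and -0.07. For Med18 the low value came from the 6 h array.

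In the middle module Med4 was at 0.26, 0.03 and 0.11, and its mean of 0.13 ± 0.05 was not called (limma adjusted p = 0.072). Med31 was at 0.01, 0.05 and 0.13 and Med9 at 0.14, -0.01 and -0.10. Med12, which activates the kinase of the detachable kinase module, was at 0.01, 0.13 and 0.12 and was not called. The partners of Med12 in this module, Cdk8, Ccnc and Cdk19 (Cdc2l6 on the array), had means of 0.09, 0.06 and 0.04 without a call. Med25, the target of several activators, had a mean of -0.02 from 3 probes of both signs, and Med28 had one of 0.02.

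The array's names are those of its design, and a further 22 genes of the same families carried older symbols there. By accession they matched current RefSeq symbols of the kind that defined the members, and all 22 were measured. Of these, 3 rose, 1 fell and 18 were not called, and 18 of the 22 were Mediator subunits. Polr2m (Grinl1a on the array), a polymerase-associated protein that competes with TFIIF, was at 0.23, 0.24 and 0.21, with a mean of 0.23 ± 0.03 (limma adjusted p = 0.0049). The Mediator subunits Med17 (Crsp6) and Med24 (Thrap4) rose, with means of 0.19 and 0.12, and Med7 (Crsp9) fell by 0.14. The remaining 15 of the Mediator genes were not called.

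Among elongation factors, P-TEFb releases paused polymerase. Its kinase gene Cdk9 was at 0.10, 0.07 and 0.11 with a mean of 0.09 ± 0.03, and it narrowly missed the threshold (limma adjusted p = 0.054). Ccnt1, the main cyclin partner, was at -0.20, -0.17 and -0.15 at 6, 12 and 24 h. All 3 values were below 0, and the mean fell by 0.17 ± 0.03 on the log2 scale, a 1.13-fold reduction (limma adjusted p = 0.0087). A different Ccnt1 probe, well above background in the treated channel only, pointed the other way, at 0.20, 0.20 and 0.11 at the 3 times. Its untreated signal was not well above background, so these ratios are uncertain. With no filter on dim probes the Ccnt1 mean was -0.0019 and was not called. Ccnt2, the paralog, was at -0.01, 0.10 and 0.11 and was not called, and its mean of 0.06 turned to -0.23 under median centring. The difference between the cyclins was not tested.

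DSIF consists of Spt4 and Spt5 and holds the polymerase before release. The mouse has a pair of Spt4 genes, and both rose. Supt4h1 (now Supt4a) was at 0.13, 0.21 and 0.24 with a mean of 0.19 ± 0.03 (limma adjusted p = 0.0095). Supt4h2 (now Supt4b) was at 0.12, 0.16 and 0.21 with a mean of 0.16 ± 0.03 (limma adjusted p = 0.013). The calls were lost under 2 (Supt4h1) and 3 (Supt4h2) of 13 alternatives. With processed signals the limma adjusted p was 0.065 for Supt4h1 and 0.11 for Supt4h2. The 2 genes are near-identical copies, so their probes may share signal and the values are uncertain as separate measurements. Their partner Supt5h was at -0.09, -0.02 and -0.02 and was not called. Supt16h, a subunit of the histone chaperone FACT, was at 0.18, 0.11 and -0.01, and Supt6h, a chaperone that travels with the polymerase, at 0.05, 0.05 and 0.16, both without a call.

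Partners of the elongation machinery outside the naming rule were counted by list. Of 8 measured regulators of P-TEFb, 1 rose and 0 fell. Ell2, a subunit of the super elongation complex, was at 0.22, 0.18 and 0.20 with a mean of 0.20 ± 0.03 (limma adjusted p = 0.0060). The inhibitors Hexim1 and Hexim2 had means of -0.03 and 0.06 without a call. Of 9 measured genes of the PAF complex and other elongation factors, Tceb1 (elongin C) and Leo1 rose, with means of 0.19 and 0.14, and Tceb2 (elongin B) fell by 0.10. The 3 NELF genes measured, Whsc2, Th1l and Rdbp, were not called, with means of 0.09, 0.08 and 0.08. Of 6 genes for phosphatases of the polymerase tail and for polymerase assembly, Ctdspl and Ssu72 rose by 0.23 and 0.10 on the log2 scale and Ctdsp1 fell by 0.15.

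RNA polymerase III, which makes tRNAs and other small RNAs and shares subunits with RNA polymerase II, served as a reference. Of its 9 own subunits measured here, 6 rose and 0 fell, beside 4 and 0 of the 12 genes of RNA polymerase II. Among all genes, 20.6% were called higher and 8.09% lower. With the scanner's processed signals the reference lists together, these 9 genes included, gave 2 higher calls, against 12 in the main setting. The 4 highest subunits of RNA polymerase III were Polr3d, Polr3b, Polr3g and Polr3e, with means of 0.16, 0.15, 0.14 and 0.12. The median of the means was 0.12 over these 9 genes, 0.07 over the 12 polymerase II subunits, 0.04 over all 65 members and 0.03 over all genes. The difference between the polymerases was not tested.

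**Figure D3:**
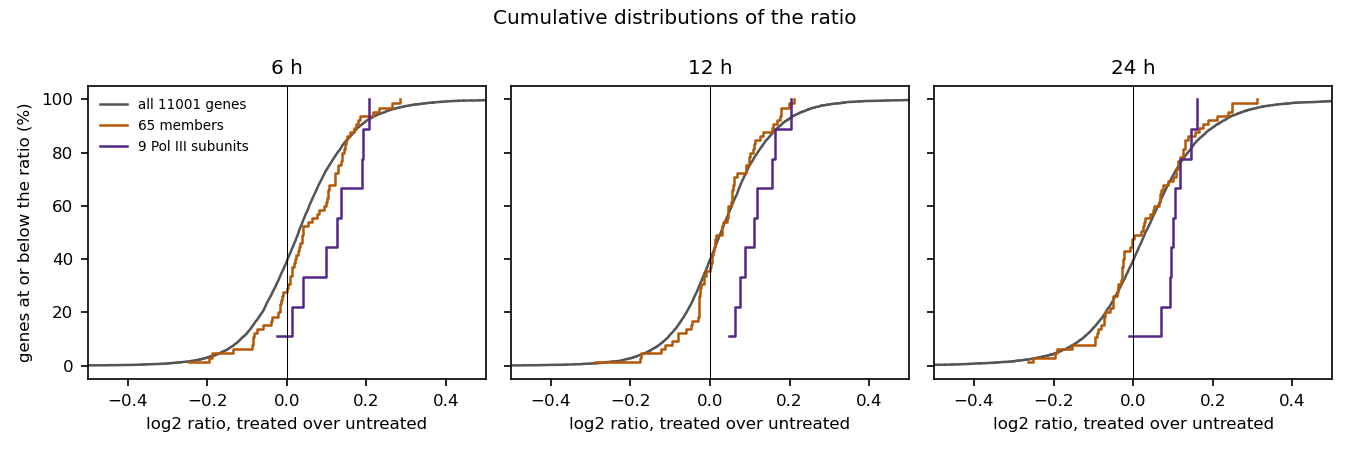
Cumulative share of genes (percent) at or below each log2 ratio of treated to untreated cells at 6, 12 and 24 h, for all 11001 genes (grey), the 65 members (orange) and the 9 subunits of RNA polymerase III (violet). The curve of the members stays within a ratio of -0.29 to 0.31 while that of all genes has longer tails that run beyond the axis, and the violet curve lies to the right of the others over most of its length.

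The second comparison asked whether a ratio moved with time of exposure, by a slope over log2 time in which a dye bias equal on all arrays cancels. Of 65 members, 0 rose and 1 fell (1.54%), where 4.66% of all genes were called, 2.65% rising and 2.01% falling. At an unadjusted p under 0.05 the slope counted 9 of 65 members and 2270 of 11001 genes, a smaller share of the members. Gtf2h3, the p34 subunit of TFIIH, was at 0.10 at 6 h, -0.03 at 12 h and -0.20 at 24 h. Its ratio fell by 0.15 ± 0.03 on the log2 scale for each 2-fold increase in time (limma adjusted p = 0.026, 95% interval of the slope -0.22 to -0.08). The log2 signal of the treated channel was 8.12, 8.06 and 7.81 and that of the untreated channel 8.01, 8.09 and 8.01, so the treated channel held the lower value at 24 h. This slope rests on 1 residual degree of freedom, and with the scanner's processed signals its adjusted p was 0.24.

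The next largest decreases from 6 to 24 h were those of Med9 (-0.23), Taf7 (-0.22), Supt16h (-0.19) and Gtf2f2 (-0.19). None of these slopes was called. The largest increases were those of Polr2a (0.32), Med18 (0.16), Taf3 (0.13), Ccnt2 (0.12) and Med31 (0.12), also without a call. The slope of Polr2a was 0.16 ± 0.05, with an adjusted p of 0.073 (limma). For Polr2h the 95% interval of the slope ran from -0.09 to 0.06, and for Polr2j from -0.07 to 0.08.

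**Figure D4:**
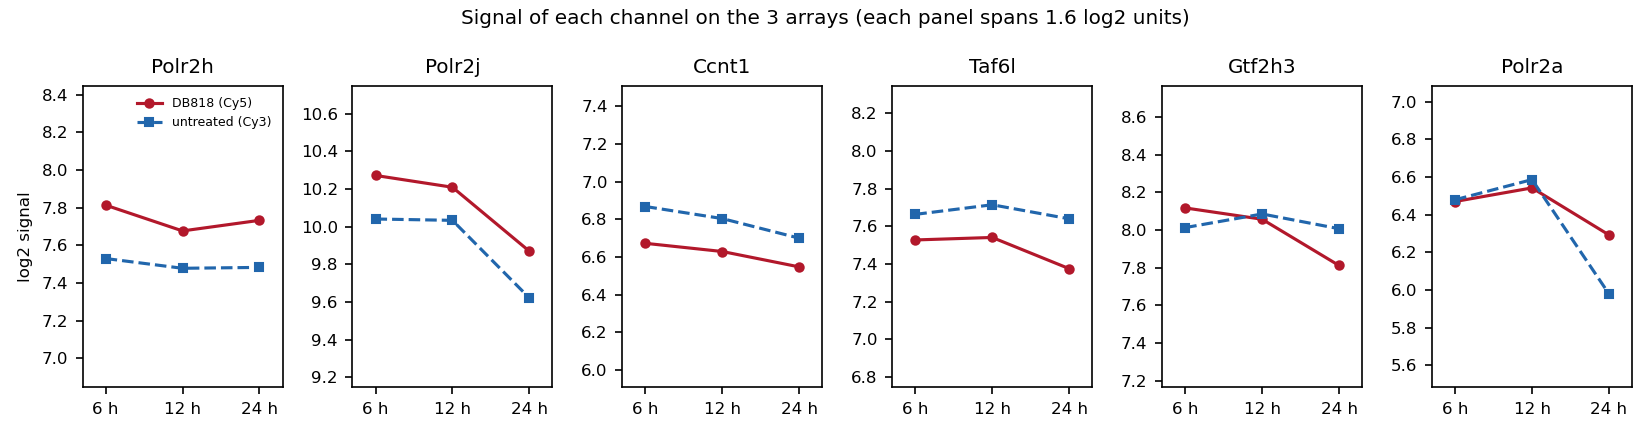
Log2 signal of the treated (Cy5, solid red) and untreated (Cy3, dashed blue) channels at 6, 12 and 24 h for 6 members, with 1 array a time and every panel spanning 1.6 log2 units. The average intensity of both channels was quantile-normalised across the 3 arrays, with the ratios unchanged. The red points lie above the blue ones at each time for Polr2h and Polr2j and below them for Ccnt1 and Taf6l, and for Polr2a both channels drop at 24 h.

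Agreement between probes varied among the members. Of the 65 members, 42 rested on 1 probe and 23 on several. The median spread between probe means of a gene was 0.081, and the largest was 0.51 (Taf1). In 8 of the 23 genes the probes differed in the sign of the mean, namely Gtf2f2, Gtf2h2, Med25, Taf1, Taf4a, Taf5, Taf7 and Taf9. The probes of Taf4a lay at -0.12 and 0.16, and 1 of the 3 probes of Taf9 matched Ak6, a gene that overlaps it. Of the 16 members called in the mean, only Taf1 was among these 8, and Gtf2a2 was the other one with several probes.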

How the data were processed

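RNA of DB818-treated (Cy5) and untreated (Cy3) MigA9 cells had been hybridised to 3 two-colour Agilent arrays, 1 a time. The submitters' processing notes name Agilent Feature Extraction 9.1.3.1. The authors deposited the scanner's spot and local background intensity of both channels, per the file headers. They also deposited a log10 ratio for each array, which equalled the scanner's own ratio (largest difference 0). Log2 ratios were computed here from the deposited intensity values.

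Mean signals were corrected with normexp (offset 50, median background), followed by within-array loess in limma 3.58.1 under R 4.3.3, files being read through data.table (1.17.8), with control and outlier spots (37, 36 and 52) given no weight. Repeated spots were averaged, and each gene was given the mean of its unsaturated probes well above background in both channels on all 3 arrays. The single-time ratios have no test, since no time was repeated. limma tested the mean over the 3 times against 0 (2 residual degrees of freedom, prior 4.87) and the slope over log2 time (1 residual, prior 10.5), with Benjamini-Hochberg adjustment at 0.05 over 11001 genes. Both fits were run on simulated data with planted changes larger than those of the called members. That run does not show how reliable calls of the present size are. For the channel signals, the average intensity of both channels was quantile-normalised over the arrays and the ratios were left unchanged. The channels were not normalised separately. Gene names are the array's, and 87 member probes matched RefSeq by accession. The number of arrays limits the precision.

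Members and lists were chosen with earlier results of these data known, and 1 partner gene is not reported here. Named with values were members past the threshold, the 5 largest changes each way from 6 to 24 h, the core polymerase, P-TEFb, the Mediator kinase module, paralogs, genes whose probes differ in sign and up to 4 called genes each way of each list. Other members were named after their values were seen. Alternatives changed the normalisation, the background correction, the dim-probe filter, the probe taken, the symbols, the array weights and the thresholds, or left out an array.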

Additional observations from a re-analysis of the deposited data

Results flagged for a closer look

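The slope of Gtf2h3 over time was the 1 member result whose ratio differed between exposure times by a test of that difference. It was -0.15 on the log2 scale for each 2-fold increase in time (limma adjusted p = 0.026), from ratios of 0.10, -0.03 and -0.20 at 6, 12 and 24 h. It rests on 1 probe and 1 array a time.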

How the results depend on the processing

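Treated and untreated RNA share each array, so every ratio already uses that pairing. With 1 array a time no further pairing was possible. With 3 arrays and no dye swap, each call rests on few degrees of freedom.

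The calls of the mean were 12 higher and 4 lower among members, and 12 higher and 2 lower among the reference lists. The scanner's processed signals gave 2 and 3 among members and 2 and 0 among the lists, plain subtraction 7 and 3 with 1 list gene lower, and an offset of 10 gave 7 and 3 with 7 and 1 in the lists. Median centring gave 38 and 19, with 14 list genes lower, where 40.1% of all genes were called higher and 41.0% lower. Using no filter on dim probes gave 11 of 71 members higher and 2 lower, where 7.71% and 3.46% of 27646 genes were. The brighter probes alone gave 1 lower, but Ccnt1, Taf6l, Med19 and Polr2h were not tested there. The 12 called members that were tested with the brighter probes all kept the call. Array weights (0.42, 4.56 and 0.53 for 6, 12 and 24 h) gave 25 and 8 for members and 24 and 8 for the lists. An adjusted p under 0.01 left 5 and 1, with 3 and 0 in the lists. Leaving out 1 array gave 2 to 11 members higher and 0 to 3 lower, and 2 to 10 list genes higher and 0 to 2 lower. Without the 12 h array 2 members rose and 0 fell, and 2 list genes rose and 0 fell. Without the 24 h array 8 members and 7 list genes rose, and 3 and 0 fell. Shares over all genes are not given here for the brighter probes, the array weights, the adjusted p under 0.01 and the left-out arrays. Those counts are therefore not set against the background.

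The single member called over time became 0 with processed signals, plain subtraction, an offset of 10, no filter, or an adjusted p under 0.01. The slope cannot be tested on 2 arrays. Members at or past a log2 ratio of 0.32 numbered 3, 3 and 6 at 6, 12 and 24 h with processed signals, 1, 1 and 3 with plain subtraction, 2, 1 and 3 with an offset of 10, 27, 20 and 28 with median centring, 1 at 6 h with no filter, 1, 1 and 1 for the brighter probes and 2, 1 and 1 for the brightest probe of each gene. At a log2 ratio of 0.20 they numbered 5, 2 and 7. The shares of all genes past these cuts are not given here for the alternatives. These counts therefore cannot be read as particular to the members. Medians under median centring were 0.21, 0.16 and 0.15, against 0.00, 0.00 and 0.01 over all genes, and the brighter probes gave 0.10 at 6 h. Means called with the opposite sign were found under median centring: Taf1 (-0.19), Gtf2e2 (0.27), Taf7 (-0.42), Gtf2f2 (0.13), Polr2a (-0.56), Taf3 (-0.31), Ccnt2 (-0.23), Polr2k (0.29), Polr2g (0.37) and Polr2f (0.26). Means near 0 also crossed it without a call under other settings: Med9, Taf7 and Polr2a with processed signals (-0.02, -0.04 and -0.04) and Med9 with an offset of 10 (-0.03), among others. The cause was not tested.

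Of the 16 called members, 5 kept the call with processed signals, 9 with plain subtraction and 2 without the 12 h array, which were Polr2h and Polr2j. Scaling between arrays kept all 16.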

Other observations

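Crsp2, an older symbol of the Mediator scaffold gene Med14, had 1 of 3 probes measured on all arrays. Its ratio was 0.39 at 6 h, -0.06 at 12 h and -0.24 at 24 h. The slope was -0.31 on the log2 scale for each 2-fold increase in time (limma adjusted p = 0.0019), and it lies outside the names that defined the members.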
